A study of Mus musculus with 12 samples.

Results

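Genes whose tandem 3′UTR poly(A) sites (PASs) lay close together were taken from the list of PASs that 3′READS+, a sequencing method for the 3′ ends of transcripts, yielded for mouse hippocampal slices. A gene was a member when it had 2 or more PASs labelled exon3, read here as the 3′-most exon, on a single chromosome, and when the outermost of them were at most 250 nt apart. This held for 1820 genes, or 12.1% of the 15074 genes whose exon3 PASs lay on a single chromosome and strand and 24.4% of the 7465 genes with 2 or more such PASs. The list as a whole names 16627 genes, and it was used without a filter on reads. The 12 libraries came from 3 month old wild-type C57BL/6 mice, and the paper's methods describe males of 2 to 3 months. They form 4 groups of 3, control and chemical LTP slices collected 1 hr or 3 hr after treatment. LTP slices received forskolin and then forskolin with raised KCl and calcium, and control slices received the DMSO vehicle. The dentate gyrus was trimmed from all slices, and the methods describe LTP and control slices as coming from the same animals. The list is common to all libraries. Its 12 columns of read counts carry names that match none of the sample labels and were not used, so that depth, replicate error and the comparison of LTP with control slices are not given, and all values below describe where PASs lie.

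As background, the 3′ end of most mRNAs is made by cleavage of the pre-mRNA and addition of a poly(A) tail. The machinery recognises a hexamer upstream of the cleavage site, AATAAA in DNA letters or a close variant such as ATTAAA, together with U- and GU-rich elements around the site. When a 3′UTR holds several PASs in tandem, the choice between them sets its length and with it the binding sites for miRNAs and RNA-binding proteins. PASs that are near to each other add or remove only a short stretch of 3′UTR, and cleavage at a single signal can itself be imprecise.

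The positions are on mm9 per the submitters' processing notes, and sequence at the listed PASs was not analysed here. The ends of annotated transcripts (GENCODE M21, GRCm38), matched by gene symbol alone, show what the signals look like in these genes. Those shown were chosen among members with roles at synapses, in cleavage and polyadenylation or in microglia, and capitals mark the hexamer. Each line gives the last 30 bases of the annotated 3′UTR of the transcript that ends furthest downstream, and in the genes shown these bases lie within 1 exon. Whether these ends are the listed PASs was not examined.
Grik1, chr16:87895900-87895929, minus strand: aatAATAAAcaagcggattttgtttttcat
Grm8, chr6:27275119-27275148, minus strand: aatAATAAAggaatgttttgcaaatgttga
Cpsf7, chr19:10547624-10547653, plus strand: aaattgtgtAATAAActtgatgacgatgtc
C1qc, chr4:136889804-136889833, minus strand: gagatagagaAATAAAtagatcactaaata
Snap25, chr2:136782399-136782428, plus strand: ttATTAAAaattatagatcacagccaccga
P2ry12, chr3:59216272-59216301, minus strand: ttgcctctATTAAAcagtaaatgtatttaa
Nlgn1, chr3:25426215-25426244, minus strand: taaagatcctcactcacagaaatcaaaacc
Over the 18 named synaptic, signalling, cleavage and polyadenylation and glial members examined here, astrocyte and oligodendrocyte genes included, the last 30 bases of the furthest annotated transcript held AATAAA in 7, ATTAAA and no AATAAA in 5, and neither hexamer in 6, as in Nlgn1. In Cx3cr1, among the 6, these bases span more than 1 exon. Camk2a, a member described below, was not among the 18. In 10 of the 18 genes, AATAAA or ATTAAA occurred 2 or more times in the last 300 bases, and in Grm8 there were 3 occurrences.

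The members' exon3 PASs were few and near. A single pair was listed in 1462 members (80.3%, 95% Wilson interval 78.4 to 82.1%), 3 PASs in 291, 4 in 52, 5 in 12 and 6 in 3. The span had a median of 102.5 nt with quartiles of 51 and 167 nt, both within the limit set by the rule. Among members with a single pair the median span was 83 nt, and it was 148 nt with 3 PASs and 188 nt with 4. Neighbouring PASs of a member were at least 25 nt apart, so the least possible span rises with their number. These medians are a description. At the edges of the rule, 38 genes spanned 25 nt, among them Accn3, Apex2 and Arf2, and 6 spanned 249 nt, among them Mfsd6, Mrpl55 and Tmem52. No gene spanned exactly 250 nt, and 4 lay just outside at 251 nt, among them AI462493, BC005624 and Slc46a3.

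The 2263 gaps between neighbouring exon3 PASs of the members had a median of 71 nt (quartiles 43 and 126.5 nt). Gaps of 50 nt or less numbered 763, or 33.7%. In genes with wider spans, 5709 gaps were 250 nt or less, and 23.3% of these were 50 nt or less. The upper limit on the span caps the gaps of the members, so these shares are a description. Gaps were most frequent next to the distance of 24 nt within which the authors merged PASs. For each nt of gap length there were 45.5 member gaps from 25 to 30 nt, 24.4 from 31 to 40 nt and 24.6 from 41 to 50 nt. In the genes with wider spans the corresponding values were 63.8, 46.6 and 47.9. No pair of exon3 PASs in a member was 24 nt or less apart. In the 291 members with 3 PASs, the first gap was the wider in 159 and the last in 125, with medians of 66 and 58 nt.

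**Figure D1:**
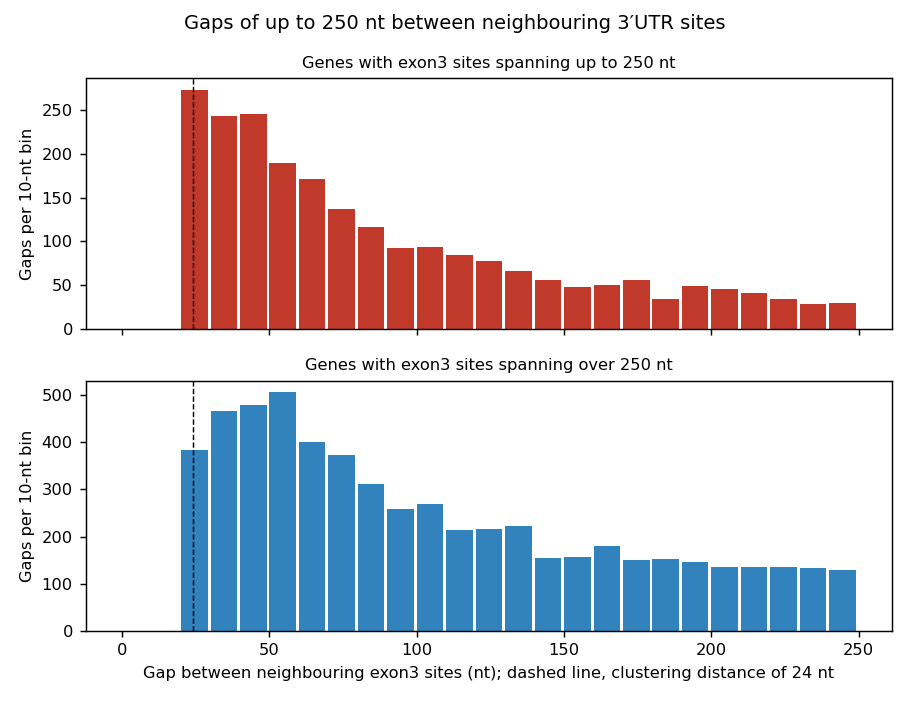
Number of gaps (y axis) by gap length in nt (x axis, bins of 10 nt) between neighbouring exon3 PASs, for members (top) and for genes with wider spans (bottom). The dashed line marks the clustering distance of 24 nt, and the bin that holds it was filled above the line in members, with 273 gaps from 25 to 30 nt. In genes with wider spans, 1 gap of 21 nt lay below the line.

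The members with the most exon3 PASs were Ftl1, Mtm1 and Skiv2l, with 6 each. In Ftl1, which encodes the ferritin light chain, the PASs lay on the minus strand of chromosome 7 at 52713542, 52713513, 52713483, 52713436, 52713409 and 52713311, in the order of transcription. Its first 4 gaps ranged from 27 to 47 nt, and the last was 98 nt. In Mtm1, which encodes the phosphatase myotubularin, the 6 PASs spanned 239 nt on chromosome X, with the widest gap, 86 nt, between the first pair. Skiv2l, which encodes a helicase of the SKI RNA decay complex, showed the same order, with a first gap of 120 nt and further gaps of 25, 36, 41 and 25 nt. Abcb8, a mitochondrial ABC transporter gene, and Atxn2, which encodes the RNA-binding protein ataxin 2, had 5 each, spanning 213 and 154 nt. They are the first by symbol of 12 members with 5 exon3 PASs. All 5 of these genes also had intronic PASs, from 1 in Ftl1 and Mtm1 to 7 in Atxn2.

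Among 36 genes of glutamate receptors, postsynaptic scaffolds and CaM kinase II with an exon3 PAS, 6 were members (16.7%). All 6 were receptor or kinase genes. The share was 12.1% of all genes with an exon3 PAS. Taking only genes with 2 or more exon3 PASs, members were 6 of 23, beside 24.4% of all such genes. Camk2a encodes the alpha subunit of CaM kinase II, a kinase central to LTP. Its only PASs in the list were the exon3 pair at 61147648 and 61147800 on the plus strand of chromosome 18, 152 nt apart. The kainate receptor genes Grik1 and Grik3 had pairs 30 and 105 nt apart, at 87896176 and 87896146 on chromosome 16 and at 125391312 and 125391417 on chromosome 4. The metabotropic receptor gene Grm8 had a pair 52 nt apart, at 27225173 and 27225121 on chromosome 6. Grm3 and Grm5, of the same family, had 3 PASs each. In Grm3 they lay at 9485319, 9485270 and 9485238 on chromosome 5, a span of 81 nt, and in Grm5 at 95283214, 95283347 and 95283417 on chromosome 7, a span of 203 nt. Grm5 had no PAS of another label, whereas Grik1 had 2 intronic PASs and Grik3, Grm3 and Grm8 had 1 each.

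Of 27 presynaptic, vesicle and synaptic adhesion genes, 4 were members (14.8%), beside 12.1% of all genes with an exon3 PAS. Taking only genes with 2 or more exon3 PASs, members were 4 of 15, beside 24.4% of all such genes. Snap25 and Vamp1 encode SNARE proteins of vesicle fusion. Their pairs were 70 and 139 nt apart, and no other PAS was listed for them. The Snap25 pair lay at 136608090 and 136608160 on chromosome 2, and the Vamp1 pair at 125172185 and 125172324 on chromosome 6. The adhesion genes Nlgn1 and Nrxn2, for a neuroligin and a neurexin, differed in their other sites. Nlgn1 had only its pair, 58 nt apart at 25330821 and 25330763 on chromosome 3. Nrxn2 had 4 intronic PASs besides a pair 213 nt apart, at 6533004 and 6533217 on chromosome 19.

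Of 32 genes of calcium, calmodulin and cAMP signalling, 3 were members (9.4%), beside 12.1% of all genes with an exon3 PAS. Adcy8 encodes a calcium-stimulated adenylyl cyclase, an enzyme class that forskolin activates. It was listed with 20 PASs, of which 13 were intronic and 5 were labelled UA, read here as upstream antisense, while its exon3 pair was 85 nt apart, at 64530679 and 64530594 on chromosome 15. The calcineurin catalytic subunit genes Ppp3cb and Ppp3cc were both members. Ppp3cb had only a pair 170 nt apart, at 21319251 and 21319081 on chromosome 14, and Ppp3cc had a pair 62 nt apart, at 70617791 and 70617729 on the same chromosome, with 12 intronic PASs and 1 PAS labelled exon3ext, read here as downstream of the 3′-most exon. Among 22 cleavage and polyadenylation factor genes, Cpsf7, which encodes a subunit of cleavage factor I, was the only member, with a pair 74 nt apart at 10622145 and 10622219 on chromosome 19. None of Notch1, Creb1, Homer1 and Wdr33, the genes whose APA the study examined singly, was a member, and none of the 24 immediate early genes with an exon3 PAS was (0%, upper Wilson limit 13.8%). Of these 24, 12 had a single exon3 PAS and 12 had exon3 PASs spanning more than 250 nt. The upper limit of 13.8% lies above the 12.1% of all genes with an exon3 PAS. Members were 3 of 22 signalling genes with 2 or more exon3 PASs and 1 of 11 such factor genes. The share was 24.4% of all genes with 2 or more exon3 PASs.

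Glial genes were counted as well, since the slices hold several cell types. Members were 3 of 10 microglia marker genes (30.0%, interval 10.8 to 60.3%), 1 of 10 astrocyte and 1 of 11 oligodendrocyte marker genes. The share of all genes with an exon3 PAS was 12.1%, which the microglia interval held. Taking only genes with 2 or more exon3 PASs, members were 3 of 4 microglia, 1 of 3 astrocyte and 1 of 6 oligodendrocyte genes. Of all such genes, 24.4% were members. C1qc, for a chain of complement C1q, had a pair 28 nt apart at 136445721 and 136445693 on chromosome 4. The ADP receptor gene P2ry12 had a pair 90 nt apart at 59020281 and 59020191 on chromosome 3, and the fractalkine receptor gene Cx3cr1 a pair 135 nt apart at 119957946 and 119957811 on chromosome 9. Of the other microglia genes, 6 had a single exon3 PAS and 1 a wider span. The astrocyte gene S100b had 3 PASs at 75723882, 75723907 and 75724029 on chromosome 10, the first pair 25 nt apart, and Sox10, a transcription factor gene of oligodendrocytes, had a pair 145 nt apart at 78985507 and 78985362 on chromosome 15.

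**Figure D2:**
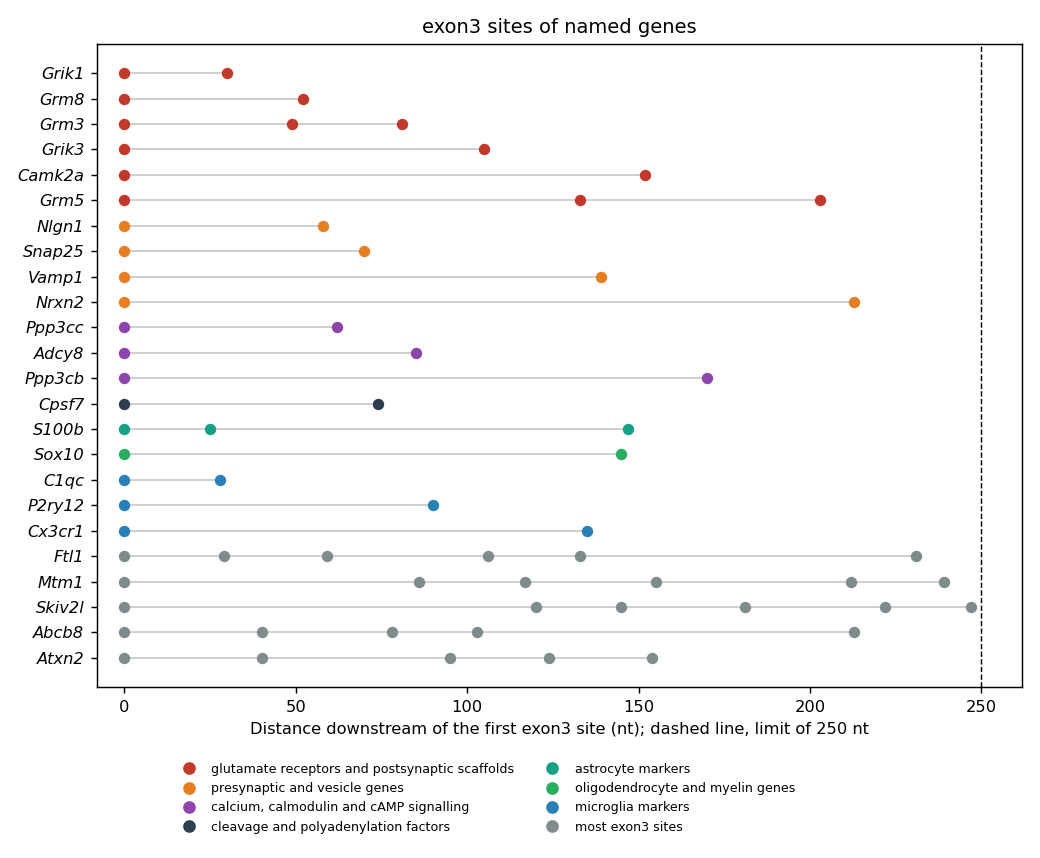
Each row is a gene, and points are its exon3 PASs at their distance in nt downstream of the first (x axis), coloured by gene list. Spans run from 28 nt in C1qc to 247 nt in Skiv2l, with 2 or 3 PASs in the synaptic, signalling and glial genes and 5 or 6 in the last rows.

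In the lists of housekeeping families, described by their counts and with no test, members were 19 of 82 cytosolic ribosomal protein genes (23.2%, interval 15.4 to 33.4%), 13 of 74 mitochondrial ribosomal protein genes (17.6%), 7 of 41 proteasome subunit genes (17.1%), 10 of 83 oxidative phosphorylation genes (12.05%) and 4 of 48 translation initiation factor genes (8.33%), beside 12.1% of all genes with an exon3 PAS. Taking only genes with 2 or more exon3 PASs, members were 19 of 35 cytosolic ribosomal protein genes, 13 of 35 mitochondrial ribosomal protein genes, 7 of 16 proteasome subunit genes, 10 of 19 oxidative phosphorylation genes and 4 of 23 translation initiation factor genes, where 1820 of 7465 genes in all were members. The narrowest cytosolic ribosomal spans were 29 nt in Rpl10 and 32 nt in Rpl39, and the widest 228 nt in Rpl14 and 231 nt in Rps25. Cox5b, for a subunit of cytochrome c oxidase, and Atp5sl, a gene named for its likeness to an ATP synthase subunit, had pairs 25 nt apart, and the complex I genes Ndufb3 and Ndufv2 spanned 194 and 223 nt. In the proteasome the spans ran from 53 nt in Psme4 to 242 nt in Psmb1, with 60 nt in Psmb7 and 240 nt in Psmd12. Mrpl51 and Mrps30, of the mitochondrial ribosome, had pairs 25 and 44 nt apart, and Mrpl24 and Mrpl55 spanned 217 and 249 nt. Of the initiation factor genes, Eif2a spanned 75 nt, Eif1ax 140 nt, Eif3j 203 nt and Eif2s1 208 nt. Ribosomal protein genes have processed pseudogene copies, and how the authors placed reads that match several copies is not given in the sources used here.

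In other gene families, members were 32 of 332 Zfp zinc finger genes (9.64%, interval 6.91 to 13.3%), with Zfp804a and Zfp764 the narrowest at 28 and 29 nt and Zfp346 and Zfp472 the widest at 230 and 236 nt. Of the Zfp genes, 204 had exon3 PASs spanning more than 250 nt. Members were also 32 of 295 solute carrier genes (10.8%), 6 of 53 Rab GTPase genes (11.3%), 10 of 74 potassium channel genes (13.5%), 3 of 33 kinesin genes (9.09%) and 1 of 14 GABA-A receptor subunit genes, Gabra4, with 3 PASs spanning 137 nt. With all genes with an exon3 PAS as the base, the Wilson interval of each of these shares held 12.1%. Of the 20 lists, the interval of the cytosolic ribosomal proteins alone did not hold it on this base. The intervals are not adjusted for the number of lists. Other lists lay away from the 24.4% of all genes with 2 or more exon3 PASs. Examples are 10 of 19 oxidative phosphorylation and 32 of 236 Zfp genes. Taking only genes with 2 or more exon3 PASs, members were 32 of 236 Zfp genes and 32 of 148 solute carrier genes. They were 6 of 30 Rab, 10 of 38 potassium channel, 3 of 13 kinesin and 1 of 9 GABA-A receptor subunit genes. In all, 1820 of 7465 such genes were members, and no intervals were computed on this base. Rab3a, a GTPase of synaptic vesicles, had a pair 26 nt apart and Rab34 a pair 35 nt apart, against 134 nt in Rab24 and 229 nt in Rab32. The 10 potassium channel members had a median span of 37.5 nt, given here as the lowest median of the lists. Those of the other lists with members ran from 67 nt in cytosolic ribosomal proteins to 201 nt in proteasome subunits. The potassium channel spans were 30 nt in Kcnh2 and in Kcnip4, 101 nt in Kcnk10 and 214 nt in Kcnk13. Kcnip4, in this list by its symbol, encodes a channel-interacting protein and was listed with 16 intronic PASs. The solute carriers Slc15a3 and Slc16a11 had pairs 26 nt apart, and Slc7a10 and Slc24a5 spanned 239 and 244 nt. The kinesin genes Kif21b, Kif27 and Kif9 spanned 28, 161 and 189 nt.

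**Figure D3:**
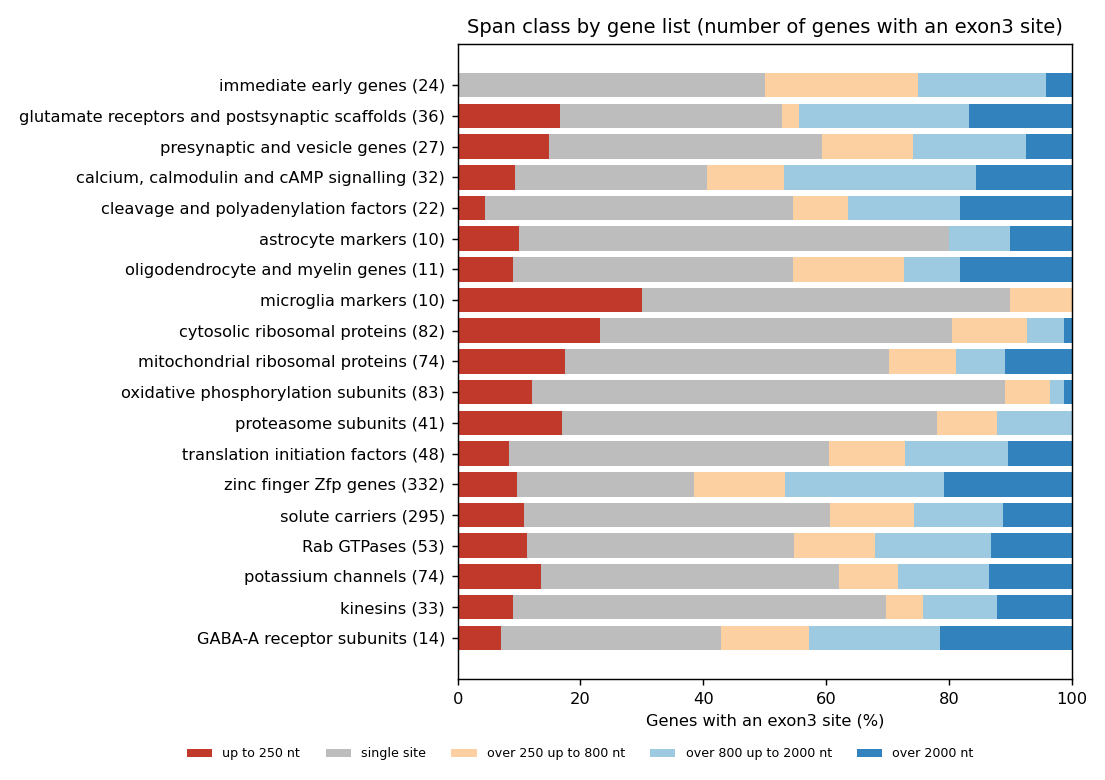
Share of the genes with an exon3 PAS (x axis, %) in each class of span, by gene list, with the number of genes in parentheses. Red marks members, 23.2% of the cytosolic ribosomal protein genes and none of the immediate early genes. Over all genes with an exon3 PAS the share was 12.1%.

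Many members also had PASs of other labels, which the rule did not use. The only listed PASs were exon3 PASs in 864 members (47.5%, interval 45.2 to 49.8%). An intronic PAS was listed for 705 members (38.7%, with a lower Wilson limit of 36.5%), beside 25.1% of the 7609 genes with a single exon3 PAS and 39.5 to 40.2% of the genes in the 3 wider classes. The label intron_Comp accounted for most of them, with 651 members, and intron_Skip was found in 114. When only genes with exactly 2 exon3 PASs were taken, the share was 36.6% (interval 34.2 to 39.1%) in members, and 30.0% (27.1 to 33.0%), 31.2% (27.9 to 34.6%) and 28.01% (23.5 to 33.1%) with spans of up to 800 nt, up to 2000 nt and more. The intervals of members and of the middle class thus overlapped. In the members with an intronic PAS, the nearest lay a median of 8770 nt upstream of the first exon3 PAS. An exon3ext PAS was listed for 265 members (14.6%) and lay a median of 595 nt beyond the last exon3 PAS. The share was 9.16% with a single exon3 PAS and 16.8%, 15.5% and 12.7% in the wider classes. A UA PAS was listed for 276 members (15.2%), beside 10.1% with a single exon3 PAS and 16.8%, 16.3% and 16.2% in the wider classes. The number of PASs listed for a gene can depend on its read number, which was not analysed here, and no test was made between the classes.

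Some members ended near a gene of the opposite strand. An exon3 PAS of another gene on that strand lay within 1000 nt downstream of the last exon3 PAS in 175 members (9.62%, interval 8.34 to 11.1%). The share was 10.5% in genes with a single exon3 PAS and 7.41%, 6.63% and 5.18% in the classes of wider span. Among genes with exactly 2 exon3 PASs it was 9.71% in members and 9.04%, 5.58% and 5.12% in the wider classes. A further arrangement was counted separately, and a gene could have both. Here an opposite PAS lay at or within 1000 nt upstream of the last exon3 PAS, so that both 3′ ends overlapped. This was found for 107 members (5.88%, interval 4.89 to 7.06%), beside 3.27% with a single PAS and 3.52%, 4.86% and 2.17% with wider spans. With exactly 2 exon3 PASs it was found for 6.50% of members and 3.79%, 4.76% and 2.41% in the wider classes. Rab3a, Rpl10, Skiv2l and Slc7a10 were among the members with a convergent neighbour, and Rps25, Mrpl24, Slc15a3 and Slc24a5 among those with overlapping ends.

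**Figure D4:**
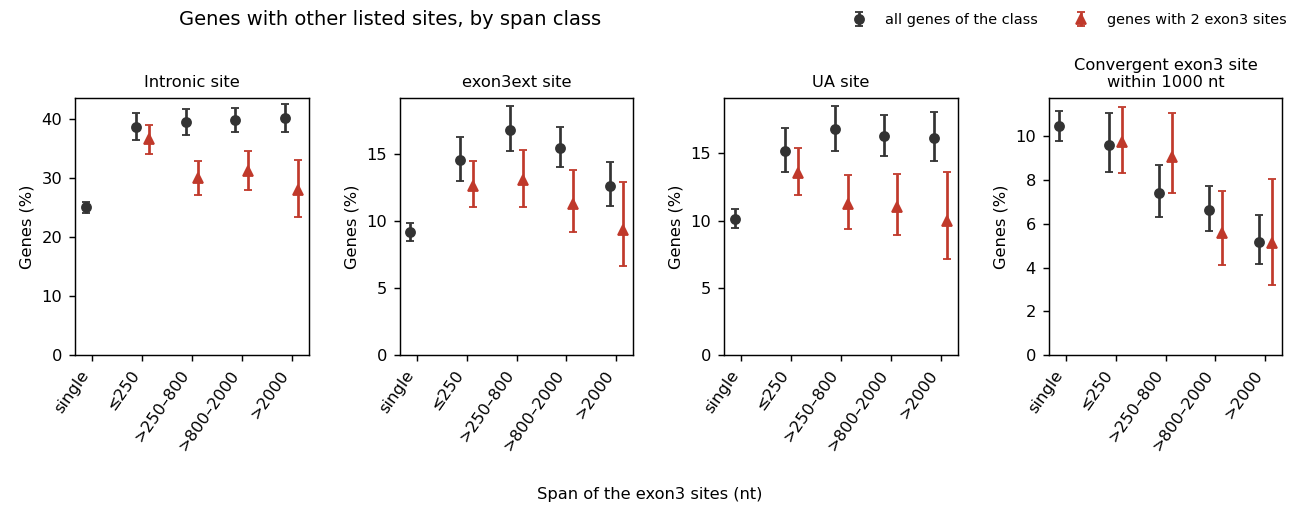
Share of genes (y axis, %) with an intronic, exon3ext or UA PAS, or with an exon3 PAS of an opposite-strand gene within 1000 nt downstream, by class of exon3 span in nt (x axis). Circles are all genes of a class, triangles those with 2 exon3 PASs, and bars 95% Wilson intervals. The intronic share of members is 38.7%, and 36.6% with 2 PASs.

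Hexamers were counted at the annotated transcript ends of the members and of the other genes. An end with at least 300 bases of transcript was found by symbol for 1613 members (88.6%) and for 13387 genes in all (88.8%). AATAAA lay in the last 40 bases in 53.8% of the members (interval 51.3 to 56.2%), beside 67.5% of the genes with a single exon3 PAS and 57.7%, 62.0% and 65.1% in the wider classes. ATTAAA without AATAAA was found in 15.7%, near the 14.8% of all genes, and neither hexamer in 30.5% (interval 28.3 to 32.8%), beside 19.0% with a single PAS and 21.7% of all genes. Further upstream, from 41 to 300 bases before the end, AATAAA or ATTAAA occurred in 50.2% of the members (interval 47.7 to 52.6%), beside 18.5% with a single PAS, 30.9%, 30.1% and 35.6% in the wider classes and 27.4% of all genes. Among genes with exactly 2 exon3 PASs this share was 49.1% in members and 26.2%, 19.9% and 28.8% in the wider classes. By the rule every member has a further exon3 PAS within 250 nt, and genes with a single PAS have none. The upstream window is thus not independent of the rule, and these shares are a description. Only the transcript strand was searched, and the hexamers were counted at every start. The A and T content of the last 300 bases, which bears on how often such hexamers occur, had a median of 59.3% in members, 53.7% with a single PAS and 59.3%, 60.3% and 62.3% in the wider classes. Its part in these shares was not tested. The annotated 3′UTR had a median of 678 nt in members, beside 596 nt with a single PAS and 1033, 1836 and 3347 nt in the wider classes. It was 250 nt or shorter in 15.6% of the members, 24.8% of the genes with a single PAS, 2.50%, 2.72% and 2.33% in the wider classes and 15.3% of all genes.

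**Figure D5:**
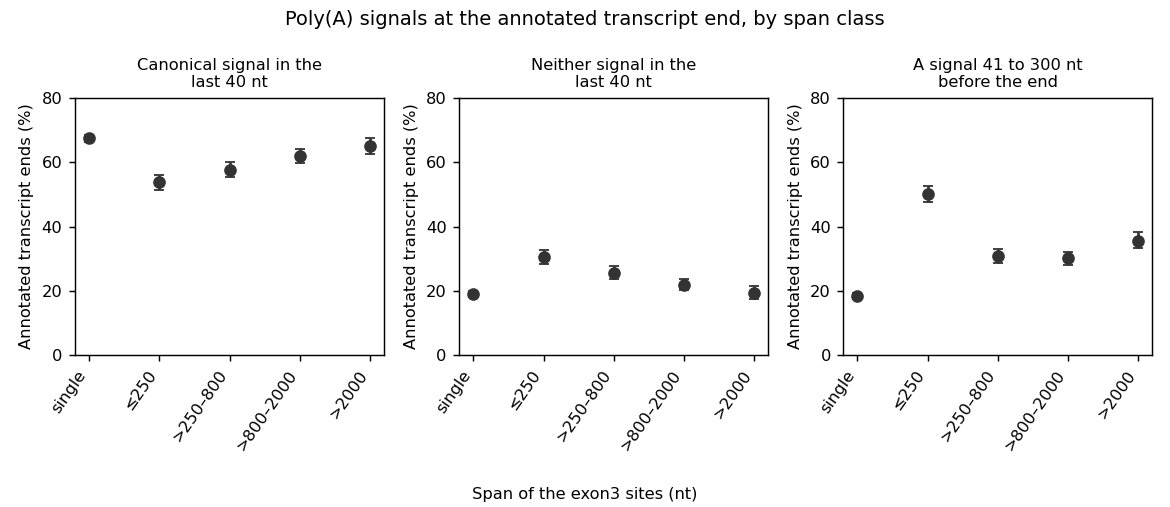
Share of annotated transcript ends (y axis, %) with the canonical hexamer AATAAA in the last 40 bases, with neither AATAAA nor ATTAAA there, and with either of them 41 to 300 bases before the end, by class of exon3 span (x axis, nt). Points are shares and bars 95% Wilson intervals, and in members the last share is 50.2%.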

How the data were processed

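The study sequenced 12 3′READS+ libraries of hippocampal slices. The authors mapped reads with bowtie 2, identified PASs from reads that carried Ts missing from the genome at the 5′ end and merged PASs within 24 nt of each other. The deposited table lists 55813 distinct PASs with gene, strand, position and region label. The paper reports fewer PASs, and its counts by library are of PASs above limits of read number and relative abundance. All listed PASs were used here, so the members can include PASs below those limits. The positions are on mm9 per the submitters' processing notes. Its 12 columns of read counts, whose names match no sample label, were not used, so depth is not given. The members and gene lists were chosen with earlier results of these data known, and a few prefix lists were trimmed of genes of other function (kinases, chaperones and binding proteins). Spans, gaps and shares were computed with Python 3.11.15, pandas 2.3.3, numpy 2.4.6 and scipy 1.17.1, and figures with matplotlib 3.10.9. The steps for spans, numbers of PASs, intronic labels and convergent neighbours were tested on simulated data, and the other steps were not. One gene with exon3 PASs on more than 1 chromosome or strand was left out. Some listed genes are not reported here and were left out of the list counts. Named genes are the members of explicit lists, the 2 narrowest and 2 widest of each prefix list, 5 with the most exon3 PASs, 3 of the narrowest, 3 of the widest and 3 just outside the limit, with ties taken by symbol. Wilson intervals (95%) cover counting error only. Transcript ends are from GENCODE M21 (GRCm38), matched by symbol. No position was carried between builds. Of the 1820 member symbols, 1638 matched a current gene name.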

Additional observations from a re-analysis of the deposited data

How the results depend on the processing

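No paired analysis was possible because no read numbers could be tied to a sample by name, and none were used. The alternatives left out PASs listed under more than 1 gene, left out genes with PASs 24 nt or less apart, or counted exon3ext PASs in the span. Members numbered 1802, 1820 and 1776 under these, against 1820. The second alternative removed no member. The share of members with an exon3ext PAS was 12.4% in place of 14.6% when these PASs counted in the span. A far exon3ext PAS then took its gene out of the class. Genes with a single exon3 PAS and a near exon3ext PAS could enter, so the members need not be the same genes. The share with a convergent PAS was 6.59% within 500 nt and 22.4% within 5000 nt, against 9.62% within 1000 nt. The median gap, the share with 2 exon3 PASs, the intronic share and the UA share each stayed within their 95% interval under all 3 alternatives, and members in the gene lists numbered 145 to 156, a count added to the alternatives after seeing the data. All values count PASs and not reads, so a rarely used PAS weighs as much as any other.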

Other observations

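The members with the most PASs of any label, chosen after their values were seen, were AI314180 with 32, Ccdc109a with 25, and Adcy8 and Ccdc17 with 20 each. In Ccdc109a, 20 of the 25 were intronic, and its 3 exon3 PASs spanned 117 nt. In AI314180, 14 were intronic and 14 were UA PASs, and its 3 exon3 PASs spanned 122 nt. Members had a median of 3 PASs of any label.

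Members were found on every chromosome in the list except Y, where 4 genes had an exon3 PAS. On the other chromosomes they made up from 9.87% of the genes with an exon3 PAS on chromosome 6 to 14.7% on chromosome 3, and 902 were on the plus and 918 on the minus strand. An exon3 PAS listed under another gene too was found in 22 members.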
